A study of Rattus norvegicus with 14 samples.

Results

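The genes described here are 9 complement components and regulators, C1qa, C1qb, C1qc, C2, C3, Cfb, Cfd, Serping1 and Cd55, out of 15154 genes named on the arrays. They were chosen by name: a probe belongs to a gene when its accession maps to the gene's symbol, and each gene is read from its brightest probe. All 9 had a probe. For 8 of them the signal was well above background, as the scanner software judges it, on all 14 arrays, and Cd55 reached this on 1 array. No probe of the 9 was saturated. The arrays hold RNA from the choroid plexus (CP) of both lateral ventricles of Wistar rats, the tissue that makes cerebrospinal fluid, collected 2 weeks after surgery at 2 months of age. Ovariectomized females (OVX) gave 3 arrays and sham-operated females 3, while orchidectomized males (OOX) and sham-operated males gave 4 each. Every array carries 1 pool of RNA from 3 animals, and the labels name no genetic modification and no hormone treatment in any group. The methods name 3 pools per group, the labels give 4 for each male group, and it is not stated that no animal entered more than 1 pool, so the p-values measure only the spread between these pools.

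Complement is a cascade of proteins that tags cells and debris for removal. C1q, built of A, B and C chains, binds targets and starts the classical pathway, C2 and factor B (Cfb) form the proteases that cleave C3 in the classical and the alternative pathway, and factor D (Cfd, also called adipsin) activates factor B. The C1 inhibitor (Serping1) stops the first proteases of the classical and lectin pathways, and Cd55 speeds the decay of C3-cleaving enzymes on the cell surface. In the brain C1q comes mainly from microglia and macrophages, and the stroma of the CP holds macrophages, fibroblasts and vessels under its epithelium.

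In the RefSeq gene table C1qb, C1qc and C1qa follow one another on chromosome 5 with no other protein-coding gene between them, and their levels are described jointly below. RefSeq promoter windows, 250 bases before and 50 after the annotated start, were at hand for C1qa, C1qb, Cfd, C3 and Cd55, which is 5 of the 9 genes. The windows of the C1q chains are printed because these 2 held the only matches to the motifs searched. Both lie on the minus strand of assembly GRCr8, C1qa at chr5:154419884-154420183 and C1qb at chr5:154407778-154408077, and are written 5′ to 3′ in the direction of the gene with the motif match in capitals.
C1qa: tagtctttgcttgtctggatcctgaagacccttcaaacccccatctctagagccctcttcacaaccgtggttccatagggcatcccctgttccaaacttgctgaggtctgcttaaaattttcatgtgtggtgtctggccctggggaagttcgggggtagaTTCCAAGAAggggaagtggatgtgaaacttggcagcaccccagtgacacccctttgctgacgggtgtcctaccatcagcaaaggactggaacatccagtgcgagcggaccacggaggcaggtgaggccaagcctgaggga
C1qb: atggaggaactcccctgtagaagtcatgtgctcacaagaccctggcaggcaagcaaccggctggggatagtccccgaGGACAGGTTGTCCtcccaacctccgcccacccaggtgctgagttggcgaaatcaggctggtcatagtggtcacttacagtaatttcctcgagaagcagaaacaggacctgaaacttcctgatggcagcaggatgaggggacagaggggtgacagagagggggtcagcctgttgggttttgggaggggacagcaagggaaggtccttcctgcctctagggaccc
The C1qa match is to the gamma-activated site TTCNNNGAA, from position -90 to -82 relative to the start, a motif found in 8.87% of 33469 promoter windows. The C1qb match, from -173 to -161, is to the palindromic element shared by androgen and glucocorticoid receptors, found in 0.439% of windows. The palindromic estrogen response element (0.0269% of windows) and the core of the interferon-stimulated response element (3.92%) occurred in 0 of the 5 windows. Both strands were searched, and a match describes letters only.

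Between 79.7% and 87.2% of spots per array were well above background. There were 5 slides and 2 scan days. All sham female arrays and OVX replicate 1 were read on the first day, and all other arrays on the second. In females, ovariectomy and scan day therefore cannot be wholly told apart. A female difference fitted with scan day as a block rests on OVX replicate 1 alone among the OVX arrays. One slide held both OVX and sham females (1 array of each) and another both OOX and sham males (1 and 2 arrays), and differences within those slides are given beside the main values. The markers of CP epithelium, Ttr, Kl, Folr1, Aqp1, Otx2, Clic6, Kcnj13, Slc4a5 and Enpp2, were well above background on all 14 arrays. On each array 4 to 6 of these 9 were saturated, so the size of their differences is uncertain. After each surgery 8 of the 9 had negative differences, with 0 at an adjusted p under 0.05 by limma. At an unadjusted p under 0.05, 0 were lower after ovariectomy and 5 after orchidectomy, where 10.7% and 2.55% of all genes were. Among males 3 arrays stood apart in markers of other cells. OOX replicate 2 had the highest summed signal of the astrocyte markers (84.4 times the array median, against 24.1 to 71.2 on the other 13), sham male replicate 3 the highest sum of the fibroblast markers (559, against 217 to 487) and sham male replicate 1 the lowest of these sums and the highest of the neuron markers (56.0, against 2.72 to 39.8). Values that move most with these arrays are given with and without them. In bulk tissue fewer cells of a type and less RNA per cell cannot be told apart.

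The 3 C1q chains differed between arrays more than between groups. In what follows a level is the log2 of a probe's background-subtracted signal over the median signal of its array. C1qa, the A chain, had levels of 3.8, 3.59 and 3.62 in OVX and 3.58, 3.73 and 3.24 in sham females, and of 3.24, 3.76, 3.74 and 3.66 in OOX and 3.31, 3.70, 3.99 and 3.70 in sham males. C1qb, the B chain, had 5.25, 4.57 and 4.93 in OVX and 5.11, 5.24 and 4.75 in sham females, and 4.55, 5.0, 5.08 and 5.11 in OOX and 4.46, 4.78, 5.06 and 4.81 in sham males. In C1qc, the C chain, the values were 1.78, 1.43 and 1.59 in OVX and 1.57, 1.76 and 1.35 in sham females, and 1.43, 1.86, 1.71 and 1.38 in OOX and 0.92, 1.31, 2.14 and 1.27 in sham males. In both sexes the groups overlap for each chain, and of the sham males replicate 3 was the highest and replicate 1 the lowest in all 3. After ovariectomy the log2 differences were 0.15 (SE 0.17, 95% interval -0.25 to 0.55) for C1qa, -0.11 (SE 0.22, -0.65 to 0.42) for C1qb and 0.04 (SE 0.16, -0.35 to 0.44) for C1qc. After orchidectomy they were -0.07 (SE 0.19, -0.50 to 0.36), 0.15 (SE 0.18, -0.27 to 0.57) and 0.19 (SE 0.26, -0.41 to 0.78), the last between 0.02 and 0.43 with single arrays left out. None passed an adjusted p under 0.05 (they ran from 0.638 to 0.963), and within the slide that held both female groups the differences were 0.56, 0.50 and 0.44, from 1 array each, so that C1qb turned its sign there.

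C2, the protease of the classical and lectin C3 convertase, was even in females and had 1 high array in each male group. Its levels were 0.47, 0.56 and 0.62 in OVX and 0.60, 0.66 and 0.52 in sham females. In OOX males they were 0.40, 1.48, 0.47 and 0.37, and in sham males 0.00, 0.09, 1.44 and -0.05. The high arrays are OOX replicate 2 and sham male replicate 3, and the second C2 probe showed the same pair at 1.27 and 1.23, with its other male arrays from -0.05 to 0.38. The OVX difference was -0.05 (SE 0.12, 95% interval -0.33 to 0.24, adjusted p = 0.853), the narrowest interval among the 9 genes. The OOX difference was 0.31 (SE 0.39, adjusted p = 0.959), which became 0.04 without OOX replicate 2 and 0.66 without sham male replicate 3. Without both it was 0.40 (SE 0.13, adjusted p = 0.600 by limma), and none of these passed. The remaining OOX arrays, 0.37 to 0.47, lay above the remaining sham males, -0.05 to 0.09, in a choice of arrays made after their values were seen.

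C3, the protein on which all pathways meet, reached its highest and its lowest level in females. OVX females had levels of 3.45, 3.81 and 2.73 and sham females 3.07, 3.12 and 2.08, while OOX males had 2.82, 2.81, 3.40 and 3.57 and sham males 2.74, 3.30, 2.88 and 3.20. Replicate 3 was the lowest array of each female group, and the groups overlap in both sexes. The OVX difference was 0.57 (SE 0.38, 95% interval -0.36 to 1.5, adjusted p = 0.439), with 0.23 without sham female replicate 3, 0.87 without OVX replicate 3 and 1.37 within the shared slide. The OOX difference was 0.12 (SE 0.23, -0.40 to 0.63, adjusted p = 0.959), and 0.54 within the slide that held both male groups.

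Among the genes of the alternative pathway the female groups overlapped for Cfb and not for Cfd. Factor B, the protease of the alternative convertase, had levels of 5.20, 4.82 and 4.71 in OVX and 5.43, 4.89 and 4.82 in sham females, a difference of -0.14 (SE 0.22, adjusted p = 0.755). Within the shared female slide the sign turned, to 0.38. In OOX males Cfb had 4.78, 4.71, 5.05 and 4.80, and in sham males 4.29, 5.50, 5.71 and 5.24. The 4 OOX arrays lie within the range of the sham males, which was set at its low end by sham male replicate 1. The difference was -0.35 (SE 0.29, 95% interval -1.02 to 0.31, adjusted p = 0.895) and -0.65 without that array (adjusted p = 0.446).

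Cfd, the protease that cleaves factor B, had levels of 0.06, -0.53 and 0.02 in OVX females and -0.78, -0.65 and -1.07 in sham females. All 3 OVX arrays lie above all 3 sham arrays. The difference was 0.68 (SE 0.21, 95% interval 0.18 to 1.19), a fold of 1.61, with adjusted p = 0.110, so it did not pass. Within the shared slide it was 1.13 and with scan day as a block 0.89. Cfd is best known as a product of fat cells, and the summed signal of the 4 adipocyte markers measured was 66.5 to 77.9 in OVX and 43.8 to 56.7 in sham females, with 4 of 4 higher and 0 passing. The sum was nearly all Adipoq, the hormone adiponectin and the 1 of these well above background on all arrays. Its levels were 6.22, 6.05 and 6.28 in OVX and 5.82, 5.60 and 5.45 in sham females. Of the 4 markers, 1 to 2 were well above background on each sham female array and 3 to 4 on each OVX array. Whether these pools held fat cells was thus not shown, and any part of such cells in the Cfd difference was not tested. In OOX males Cfd had -0.85, 1.68, -0.23 and -0.40, and in sham males -0.68, -0.54, -0.28 and -0.10. Here the groups overlap, and OOX replicate 2 alone is above the sham range. The OOX difference of 0.45 (SE 0.49, adjusted p = 0.942) was -0.09 without this array. The summed adipocyte signal of this array was 37.2, the lowest of the 14, and nearly all of it was Adipoq (level 5.21). Over the groups the sum was 37.2 to 77.8 in OOX and 61.5 to 89.4 in sham males. Its part in the Cfd level was not tested.

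Serping1, the C1 inhibitor, had the difference of smallest p among the 9 genes. Its levels were 5.19, 4.56 and 4.95 in OVX females and 5.77, 5.60 and 5.40 in sham females, so that every OVX array lies below every sham array. The difference was -0.69 (SE 0.20, 95% interval -1.17 to -0.21), a fold of 0.619, with adjusted p = 0.0935. It did not pass the threshold, and over 20 alternatives it kept its sign with values from -0.84 to -0.22. The smallest was found within the shared slide and with slide as a block, which rest on the same 1 array of each group. With scan day as a block the difference was -0.40, which rests on OVX replicate 1 against the sham females. In OOX males Serping1 had 4.67, 5.61, 5.19 and 5.24 and in sham males 4.43, 4.84, 5.85 and 5.12, with overlapping groups and a difference of 0.12 (SE 0.32, -0.61 to 0.84, adjusted p = 0.964). It was -0.03 without OOX replicate 2, -0.09 without sham male replicate 1 and 0.38 without sham male replicate 3, none of them passing. Within the slide that held both male groups it was 0.61. The OOX effect minus the OVX effect was 0.81 (SE 0.43, -0.12 to 1.74, adjusted p = 0.503).

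Cd55, the decay-accelerating factor, was near the detection limit. Its brighter probe was well above background only on OOX replicate 2, at a level of -3.66, and its levels on the other arrays ran from -6.56 to -4.80. The dimmer probe was well above background on 0 arrays. No fold is given for this gene.

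**Figure D1:**
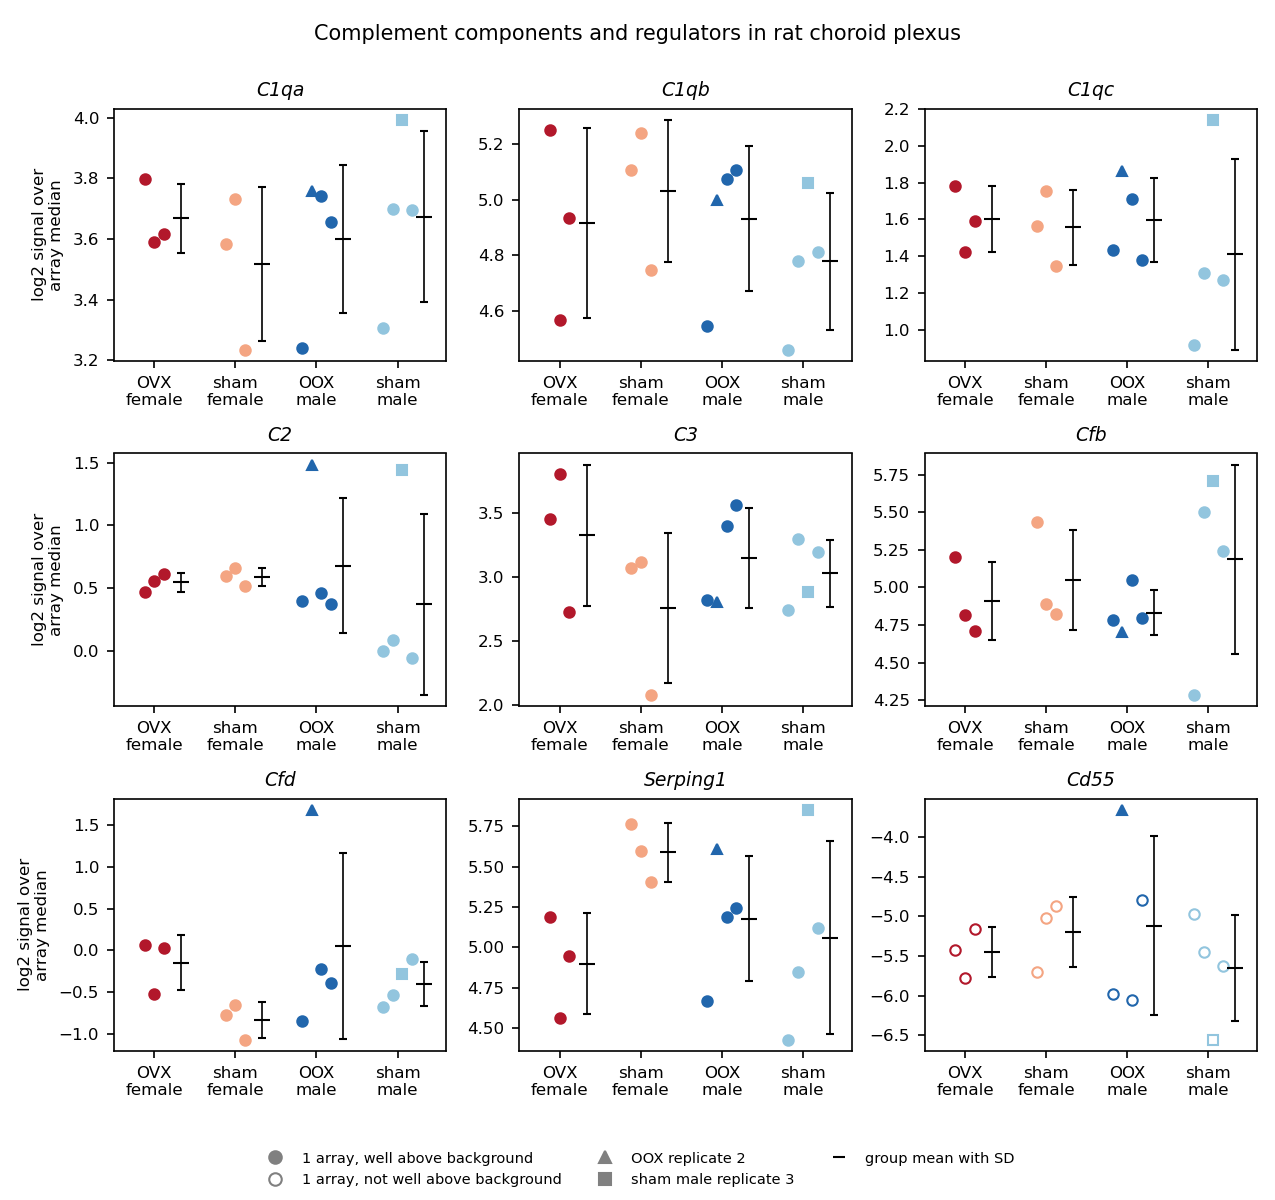
Level of each of the 9 genes (vertical axis, log2 signal over the array median, a scale of its own in each panel) on each of the 14 arrays, by group, with group mean and SD in black and open symbols where the probe was not well above background. Serping1 is lower and Cfd higher on all 3 OVX arrays than on any sham female array, and OOX replicate 2 (triangle) and sham male replicate 3 (square) carry the high C2 values of 1.48 and 1.44.

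Counted over all 9 genes, 0 passed limma's test at an adjusted p under 0.05 after ovariectomy, where 6.25% of all 15154 genes passed. At an unadjusted p under 0.05 there were 1 higher (Cfd, where 9.26% of all genes were higher) and 1 lower (Serping1, where 10.7% were lower), against 20% of all genes in either direction. The same 2 genes were those without overlap between the groups, 1 higher where 11.5% of all genes were and 1 lower where 16.2% were, against 27.7% in either direction. Both shares, 2 of 9, are near those of the whole array. The test that the methods name also gave 2 genes at their thresholds (unadjusted p of 0.05, fold of 1.5) and 0 after Benjamini-Hochberg adjustment. After orchidectomy 0 of 9 passed by limma, where 0.0858% of all genes did, 0 had an unadjusted p under 0.05 (all genes 6.87%), 0 had groups without overlap (all genes 3.99%) and 0 met the thresholds of the methods. The median difference of the 9 was -0.05 after ovariectomy, against -0.07 over all genes, and 0.15 after orchidectomy, against 0.02. In the difference between the responses of the sexes, the OOX effect minus the OVX effect, 0 of 9 passed and 0 had an unadjusted p under 0.05, where 0.251% and 10.3% of all genes did.

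**Figure D2:**
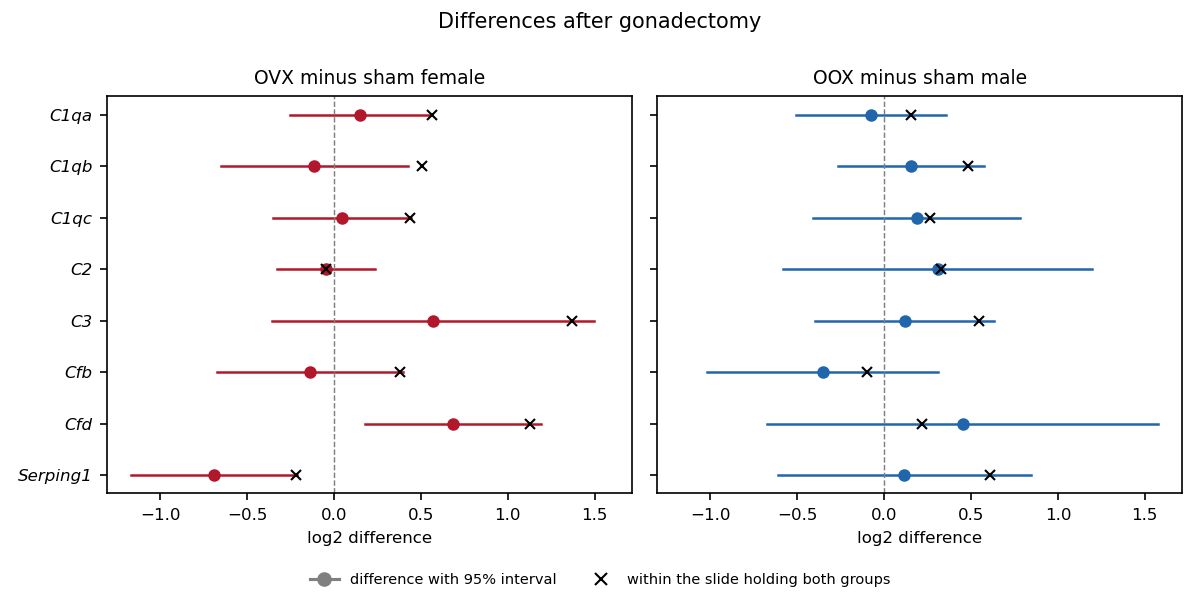
Log2 difference (horizontal axis) of the 8 genes measured on all arrays, OVX minus sham female on the left and OOX minus sham male on the right; points with lines are the fitted differences with unadjusted 95% intervals, crosses the difference within the slide that held both groups. The intervals of Cfd (0.18 to 1.19) and Serping1 (-1.17 to -0.21) leave out 0 after ovariectomy, and all 8 intervals after orchidectomy include it.

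The order of the 4 groups differed from gene to gene. Serping1 was highest in sham females (mean 5.59 ± 0.18, SD, n = 3), followed by OOX (5.18 ± 0.39, n = 4) and sham males (5.06 ± 0.60, n = 4) and by OVX females (4.90 ± 0.31, n = 3). Cfd ran from 0.05 ± 1.12 in OOX males over -0.15 ± 0.33 in OVX females and -0.40 ± 0.26 in sham males to -0.83 ± 0.21 in sham females. For C3 OVX females came first (3.33 ± 0.55) and sham females last (2.76 ± 0.59). Between neighbours in these orders, 27 pairs over the 9 genes, the adjusted p ran from 0.540 to 0.9999 in limma's fit over all arrays, and of all 54 pairs of groups 0 passed (lowest adjusted p = 0.279). Sham males set against sham females gave differences from -0.53 (Serping1, SE 0.30, adjusted p = 0.534) to 0.43 (Cfd, SE 0.45, adjusted p = 0.729), with 0 of 9 passing, where 0.389% of all genes passed. At an unadjusted p under 0.05 there were 0 of 9 (all genes 10.2%), and all 9 genes overlapped (13.1% of all genes did not). These 2 groups were scanned on different days, and sex and scan day cannot be told apart.

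Across the 14 arrays Serping1 went with the fibroblast markers. With the mean level of Dcn, Lum, Col1a1, Col1a2, Col3a1, Pdgfra, Mgp and Fbln1, genes of collagen, matrix proteins and a growth factor receptor of stromal cells, its Pearson r was 0.92 and Spearman's rho 0.96 (permutation p = 2e-05 and 1e-05, adjusted over 27 relations 0.00054 and 0.00027, where 1e-05 is the smallest that the permutations can give). Leaving out the 2 arrays with the most extreme marker means gave r of 0.86, deviations from the group means 0.95, the 10 arrays of the second scan day 0.93, and leaving out OOX replicate 2 and sham male replicate 3 gave 0.89. Of the fibroblast markers themselves 8 of 8 had negative differences after ovariectomy, with a median of -0.54 and 1 passing (Mgp, a matrix inhibitor of calcification, -0.82, SE 0.18, adjusted p = 0.0488). Their summed signal was 239 to 362 in OVX and 412 to 487 in sham females without overlap, and 318 to 458 in OOX and 217 to 559 in sham males. All 8 were well above background on all 14 arrays, and their part in the Serping1 difference was not tested. With the macrophage markers the r of Serping1 was 0.66 (permutation p = 0.0101, adjusted 0.0272), and rho was 0.58 (adjusted 0.0849). This r was 0.48 without the 2 extreme arrays and 0.54 without OOX replicate 2 and sham male replicate 3. For deviations from the group means it was 0.95 and on the second scan day 0.89, near the values for the fibroblast markers.

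The C1q chains went with one another and with both the macrophage and the fibroblast markers. Between chains r was 0.71 (C1qa and C1qb), 0.72 (C1qa and C1qc) and 0.71 (C1qb and C1qc), each with an adjusted permutation p of 0.0155, and rho was 0.64, 0.68 and 0.62 (adjusted 0.059, 0.0467 and 0.0611). Without the 2 extreme arrays of each pair r was 0.49, 0.50 and 0.66, and on the second scan day alone 0.80, 0.73 and 0.69. The mean of the chains had r of 0.80 with the mean level of the 12 macrophage markers and 0.76 with the fibroblast markers, given as a description. For deviations from the group means these were 0.86 and 0.88, and on the second scan day 0.84 and 0.86. The summed macrophage signal was 310 to 326 in OVX and 303 to 367 in sham females and 270 to 403 in OOX and 228 to 427 in sham males, with overlap in both sexes. Of the 12 markers 10 were well above background on all arrays, and 0 passed in either sex.

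**Figure D3:**
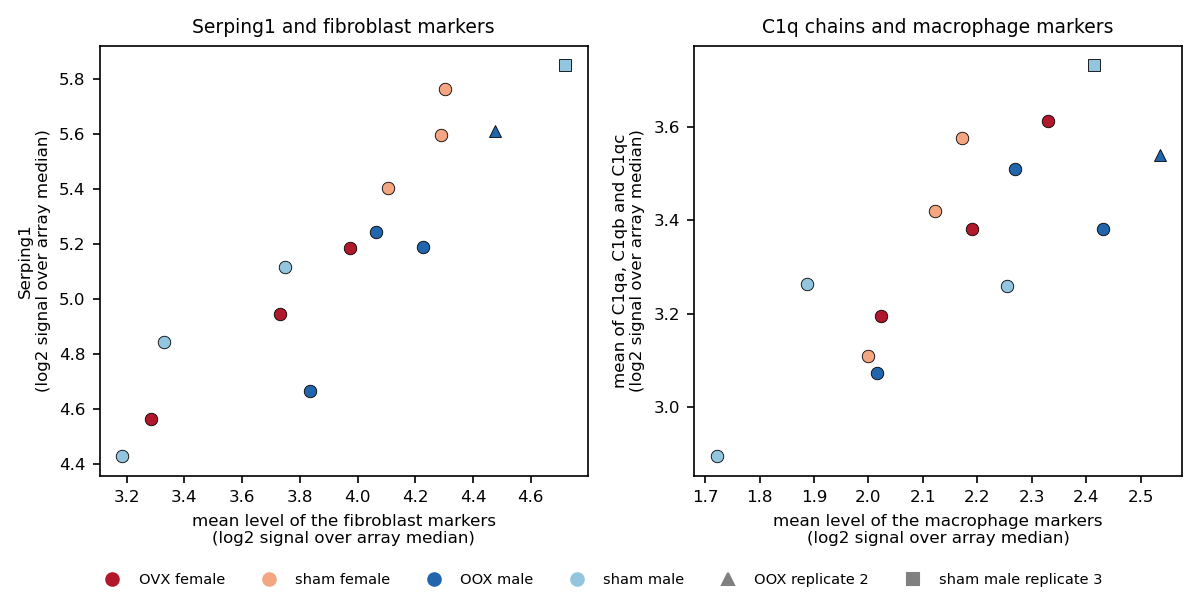
Level of Serping1 against the mean level of 8 fibroblast markers (left) and mean level of the 3 C1q chains against the mean level of 12 macrophage markers (right), both axes in log2 signal over the array median, 1 point per array, 14 arrays. The arrays follow a rising line in both panels (r of 0.92 and 0.80), with the 3 OVX arrays left of the 3 sham female arrays for the fibroblast markers.

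Of the remaining relations C2 went with the fibroblast markers (r 0.75, adjusted permutation p = 0.0126; rho 0.66, adjusted 0.0585), with r of 0.81 without the 2 extreme arrays and 0.58 without OOX replicate 2 and sham male replicate 3. Cfd went with the macrophage markers (r 0.67, adjusted 0.0223; rho 0.76, adjusted 0.0241), also without OOX replicate 2 and sham male replicate 3 (0.59). Its r of 0.64 with the endothelial markers (adjusted 0.0433; rho 0.44, adjusted 0.267) was 0.19 without those 2 arrays and so rests on them. C2 also had r of 0.64 with the macrophage markers (adjusted 0.0321; rho 0.40, adjusted 0.301), which was 0.35 without these arrays. Cfb ran against the astrocyte markers (r of -0.67, adjusted 0.0259; rho of -0.63, adjusted 0.0611), and C3 had no relation with an adjusted p under 0.05 to any of the 4 marker lists. Among 11109 genes well above background and unsaturated on all arrays, the profile of Serping1 was closest to Frzb (r 0.96), Snai1 (0.95) and Itgbl1 (0.94). The nearest to the mean of the C1q chains were Cd7 (0.93), Arhgap15 (0.88) and Kcnk6 (0.87), and for C2 they were Anpep (0.93), Mrc2 (0.90) and Serpinf1 (0.90). Cfb was nearest to Dpp7 (0.95), Pigt (0.90) and Hexa (0.89), all over 14 arrays. For C3 the highest r were 0.85 (Prr3), 0.80 (Lama5) and 0.77 (Acrbp), and for Cfd 0.92 (Actg2), 0.91 (Pln) and 0.91 (Col7a1), and these were 0.60, 0.62 and 0.79 without OOX replicate 2 and sham male replicate 3.

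Of 44 further complement genes 37 were matched to a probe by accession, 23 of them well above background on all 14 arrays and 5 on none. The unmatched genes may still have probes among the 12363 that stayed unnamed. After ovariectomy 0 were called higher and 3 lower (all genes 1.83% and 4.42%), namely C9, Mbl2 and Colec10. Mbl2 and Colec10, recognition proteins of the lectin pathway, stayed near background on every array, and no fold is given for them. Of the 1346 genes of the arrays that share this, 480 were called lower after ovariectomy, with a median difference of -0.68. C9, the pore-forming protein at the end of the cascade, was measured on all 6 female arrays. Its levels were -4.22, -3.61 and -3.05 in OVX females and -1.77, -2.0 and -2.01 in sham females, without overlap. C9 fell by 1.70 on the log2 scale (SE 0.29, adjusted p = 0.0401), a fold of 0.307, and by 2.22 within the shared slide. The call was lost in 12 of 19 alternatives, among them each of the 6 that leave out 1 array (adjusted p from 0.0564 to 0.125). With scan day as a block it was lost with a larger difference (-2.29, adjusted p = 0.0911). Under normexp background correction it was lost with a smaller difference (-0.61, adjusted p = 0.0629). The fit with slide as a block (-2.22) was among the 12. It rests on the same 1 array of each group as the value within the shared slide. The loss of the call there is therefore not informative. C9 is made chiefly in liver. The summed signal of 8 hepatocyte markers was 1.90 to 2.43 in OVX and 1.86 to 2.03 in sham females. Only 3 of the 8 were well above background on all 14 arrays, and 1 was so on none. Of the 8, 1 passed, Ahsg, which was 1.16 higher in OVX (SE 0.16, adjusted p = 0.0401). The part of these markers in the C9 difference was not tested.

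**Figure D4:**
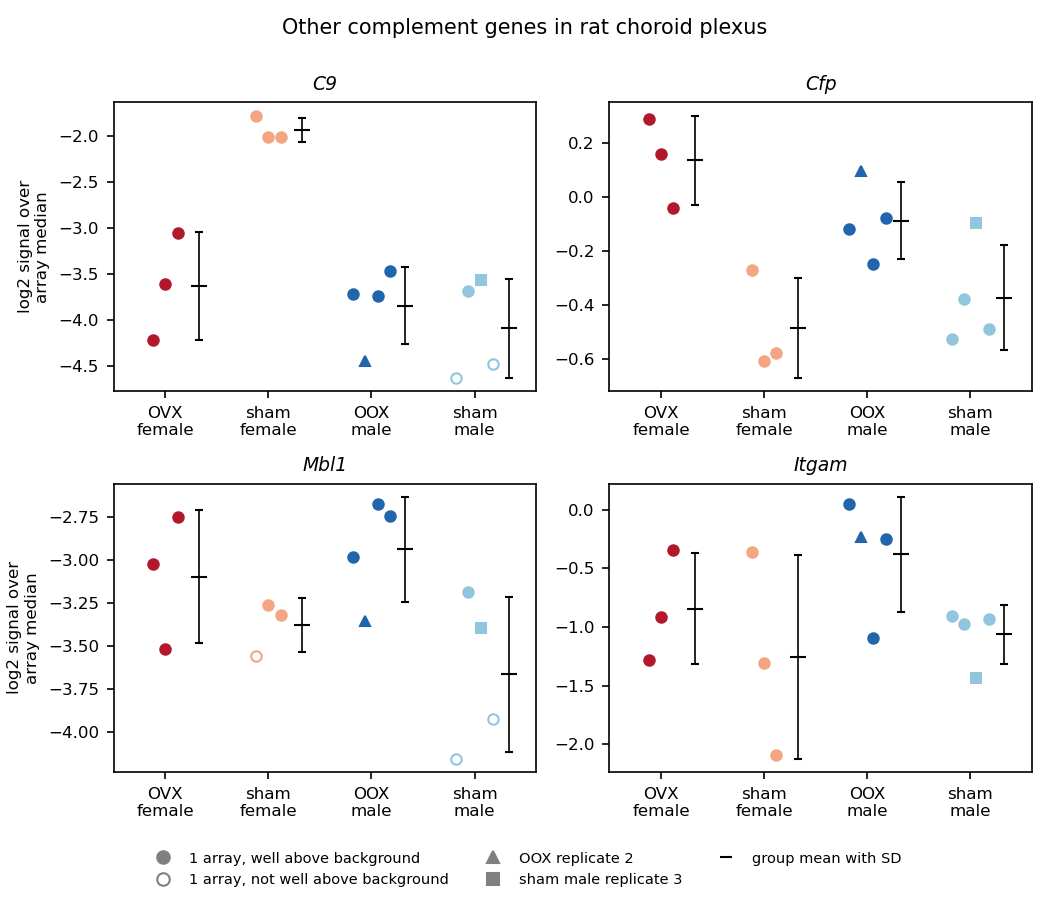
Levels of C9, Cfp, Mbl1 and Itgam (vertical axis, log2 signal over the array median, a scale of its own in each panel) on each array by group, with group mean and SD and open symbols where the probe was not well above background. Sham females have the highest C9 levels, -2.01 to -1.77, and all 11 other arrays lie at -3.05 or below.

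The males lay with the OVX females for C9, at -3.72, -4.45, -3.73 and -3.47 in OOX and -4.63, -3.69, -3.57 and -4.48 in sham males, with a clear signal on 4 of 4 OOX and 2 of 4 sham male arrays. The difference of sham males from sham females was -2.16 (SE 0.33, adjusted p = 0.0146), the 1 of the 37 genes to pass, in a contrast where 0.0924% of all genes were higher and 0.297% lower. This call was lost in 6 of 26 alternatives, among them those without sham female replicate 1 (adjusted p = 0.0618) and without sham female replicate 2 (0.0591). With scan day or slide as a term the difference was larger, -3.05 and -3.04, and did not pass (0.134 and 0.558), and under normexp it was -0.62 and passed (0.0184). With 2 of 4 sham male arrays near background its size is uncertain. The OOX effect minus the OVX effect was 1.95 (SE 0.46, adjusted p = 0.141) and did not pass. C8a, a partner of C9 in the pore, stayed near background on all 6 female arrays.

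At an unadjusted p under 0.05 there were 6 higher and 6 lower among the 37 after ovariectomy, where 9.26% and 10.7% of all genes were, and 4 and 2 of these belong to the 23 genes measured on all arrays, set against 763 and 687 of the 11456 genes of the whole array measured in this way. The female groups did not overlap for 7 higher and 7 lower of the 37, where 11.5% and 16.2% of all genes did not. Of these 14, Cfp, C4bpb and C1s are described here, chosen after their values were seen. Cfp, properdin, which stabilizes the alternative convertase, had levels of 0.29, 0.16 and -0.04 in OVX and -0.27, -0.61 and -0.58 in sham females, a difference of 0.62 (SE 0.16, adjusted p = 0.0677). C4bpb, the beta chain of the C4b-binding protein, had -0.91, -0.58 and -0.74 in OVX and -1.11, -1.78 and -1.66 in sham females (0.77, SE 0.21, adjusted p = 0.0809). C1s, a protease that the C1 inhibitor blocks, had 2.04, 1.76 and 2.10 in OVX and 2.85, 2.32 and 2.42 in sham females (-0.56, SE 0.19, adjusted p = 0.140). Its partner C1r, another such protease, had 5.12, 5.18 and 5.03 in OVX and 5.22, 4.78 and 5.09 in sham females, with overlap and a difference of 0.08 (SE 0.15).

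**Figure D5:**
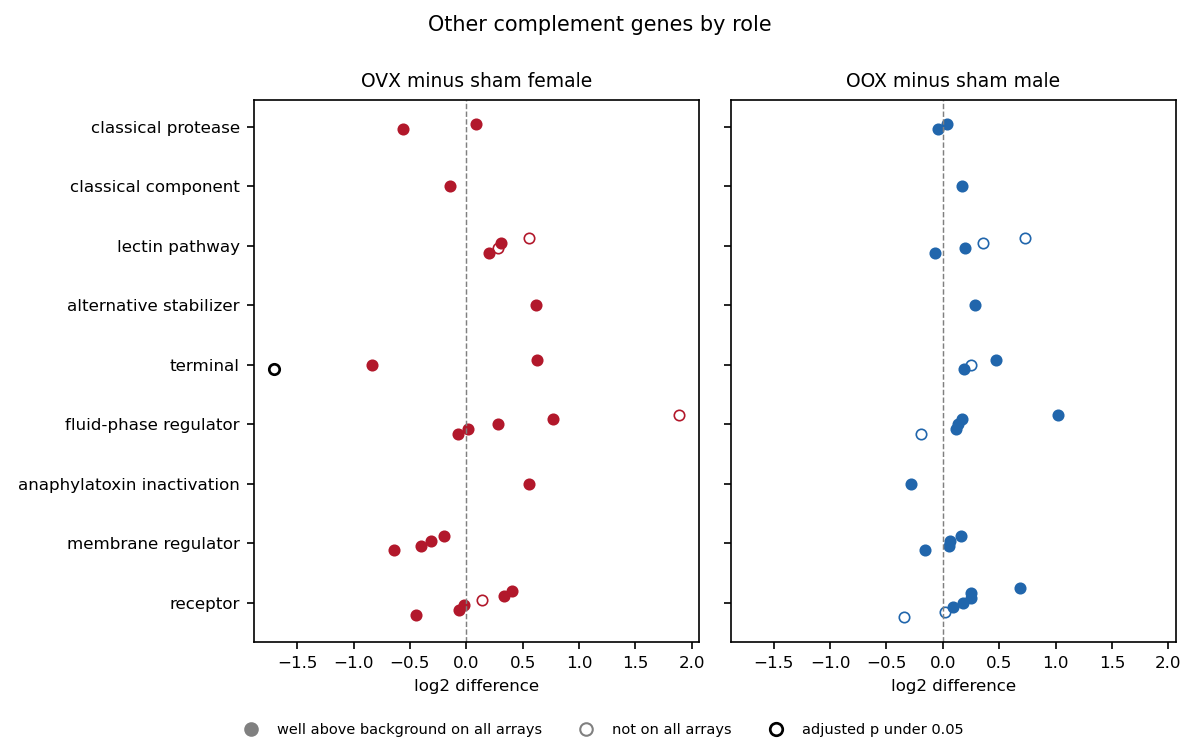
Log2 difference (horizontal axis) of other complement genes by role (rows), OVX minus sham female (27 genes, left) and OOX minus sham male (28 genes, right); genes that in either group were saturated on all arrays or well above background on none are left out, open symbols mark genes not well above background on all 14 arrays, and a black outline an adjusted p under 0.05. C9 at -1.70 is the 1 outlined gene on the left, and on the right there is none.

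After orchidectomy 0 of the 37 passed by limma, and 0 by the methods' own test after adjustment. At an unadjusted p under 0.05 limma gave 2 higher and 0 lower, where 4.32% and 2.55% of all genes were. Mbl1, a mannose-binding lectin that starts the lectin pathway, had levels of -2.98, -3.36, -2.67 and -2.75 in OOX and -4.16, -3.19, -3.40 and -3.93 in sham males (0.73, SE 0.25, adjusted p = 0.617). Its signal was near background on sham male replicates 1 and 4, its 2 lowest male arrays, so that the size of the difference is uncertain. Itgam, a chain of complement receptor CR3, had 0.05, -0.23, -1.09 and -0.25 in OOX and -0.90, -0.97, -1.43 and -0.94 in sham males (0.68, SE 0.26, adjusted p = 0.648). The groups overlap through OOX replicate 2 for Mbl1 and OOX replicate 3 for Itgam. Cfp had a difference of 0.29 (SE 0.15, adjusted p = 0.709), and Clu, which binds the terminal complex, was saturated on all 14 arrays and has no fold. For the OOX effect minus the OVX effect Cpn1, an enzyme that inactivates complement peptides, had -0.84 (SE 0.33, adjusted p = 0.412), while Mbl2 and Colec10 again have no fold. Between sham males and sham females Fcna, a ficolin of the lectin pathway, had 0.46 (SE 0.24, adjusted p = 0.503), and Vsig4, a macrophage complement receptor, and Masp2, a lectin pathway protease, were near background on all 4 sham male arrays.

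On the 2 arrays with high C2, some other genes of the cascade lay at either end of their group. On any array of a group of 4 some genes do so, and their share was not counted. Picked here after their values were seen, C4a and Vtn were at the high end. C4a, the partner of C2 in the classical convertase, had levels of 2.19, 5.01, 2.54 and 2.92 in OOX and 2.27, 2.66, 3.91 and 3.14 in sham males. Vtn, an inhibitor of the terminal complex, had 1.08, 5.34, 0.46 and 0.39 in OOX and 1.12, 0.12, 1.44 and 0.51 in sham males. OOX replicate 2 was the highest OOX array and sham male replicate 3 the highest sham male array for both. At the low end, C3 (2.81, next lowest 2.82) and Cfb (4.71, next lowest 4.78) were on OOX replicate 2 narrowly the lowest of the OOX arrays. Cfi (-0.59), which cleaves C3b and C4b, and Itgam (-1.43) were on sham male replicate 3 the lowest of the sham males. On OOX replicate 2 the mean level of the fibroblast markers was 4.48, against 3.83 to 4.23 on the other OOX arrays, and that of the endothelial markers 2.04, against 0.81 to 1.42; their part in these levels was not tested.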

How the data were processed

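The authors' Agilent Feature Extraction 10.5.1.1 (protocol GE1_105_Dec08) subtracted background and spatial trends, and what was deposited per array is the spot intensity in 1 dye. The deposited value table holds log2 values that the authors centred on the median with BRB-ArrayTools. Controls and outlier spots (222 to 877 per array) were left out, spots of a probe were averaged, and the array median was subtracted from log2 signal. RefSeq accessions (GRCr8) named 18004 of 30367 probes. limma 3.58.1 in R 4.3.3 served for all comparisons, within each sex or, between the sexes, over all arrays, with Benjamini-Hochberg adjustment over 15154 genes together with the unnamed probes. The number of arrays limits the precision. Correlations used 100000 permutations in Python 3.11.15. The fits were tested on simulated data. Alternatives were other scalings, normexp (offset 50, on median signals, since the columns used hold no mean signal), the value table, other probe and outlier rules, a filter on dim probes, 1 fit over all groups, the replicate number, the slide or the scan day as a block, the methods' own test, single arrays left out and, added after seeing the data, pairs of arrays left out. Members and lists were chosen with earlier results of these data known. Named are all 9 members, other complement genes that were called or had the 4 smallest p of a comparison, the 3 genes of most similar profile, and some chosen after their values were seen, as said there.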

Additional observations from a re-analysis of the deposited data

Results flagged for a closer look

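In 42 groups of 4 arrays (the male groups, for the members and the other complement genes named by rule) 3 held 1 array far from the other 3 by Dixon's criterion, where chance gives about 1 in 20. C2 was at 1.48 on OOX replicate 2, with the other OOX arrays between 0.37 and 0.47, and at 1.44 on sham male replicate 3, with the other sham male arrays between -0.05 and 0.09. Itgam was at -1.43 on sham male replicate 3, with the others between -0.97 and -0.90. No member or other named gene differed between the sexes in its response by the test of that difference or by full separation in opposite directions.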

How the results depend on the processing

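For the 9 genes the count of calls was 0 under every alternative run in each of the 4 comparisons, and the 2 genes at the methods' thresholds after ovariectomy were 2 by their own test too. The median of the 9 after ovariectomy moved from -0.05 to 0.44 within the shared slide and with slide as a block. In females these 2 settings rest on the same 1 array of each group, so that a count of calls with slide as a block is not informative. The 3 other complement genes called after ovariectomy were 6 after scaling to the 75th percentile (3 higher, 3 lower). There was 1 with dim probes left out and 1 with all groups in 1 fit. There were 0 with quantile normalization, normexp, the test of the methods after adjustment, or scan day as a block. Leaving out 1 array in turn gave 0 to 4. With the replicate number as a block there were also 0, but the numbers are not given as a pairing. Deviations of same-numbered arrays correlated at 0.14, -0.02 and 0.10 in females and -0.09, -0.31, -0.01 and 0.14 in males. Those of other pairs ran from -0.14 to 0.06 in females and from -0.30 to 0.42 in males. So few values neither show nor exclude a pairing. After orchidectomy 0 were called in any run. Over all genes the 947 calls after ovariectomy ranged from 0 to 1035, the 13 after orchidectomy from 0 to 19, the 38 for the difference between effects from 10 to 84, and the 59 between shams from 10 to 150. The cause was not tested. Genes near background, Cd55 among the members, have only a bound.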
